A study of Mus musculus with 7 samples.

Results

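The axon guidance ligands and receptors were taken as the autosomal protein-coding genes of GENCODE release M1, on the mouse assembly mm9, whose symbols begin with Sema3 to Sema7, Plxna to Plxnd, Nrp1 or Nrp2, Efna or Efnb, Epha or Ephb, Slit, Robo, Ntn1, Ntn4, Ntng, Unc5 or Dcc. The rule found 70 gene records with 68 symbols among 21410 autosomal protein-coding genes. They comprised 20 semaphorins, 7 plexins, 2 neuropilins, 8 ephrin records, 14 Eph receptors, 3 Slits, 4 Robos, 5 netrin records and 7 records taken as netrin receptors. Of the last group, Unc50 is a trafficking protein that shares the first letters of the symbol, and Unc5cl resembles the Unc5 receptors only in part. Efna5 and Ntng1 each had a second, short record of 2416 bp and 327 bp, and without Unc50, Unc5cl and these short records 66 guidance genes remained. X-linked members of the families were not included.

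5-formylcytosine (5fC) was mapped in J1 mouse ES cells, a line of the 129S4/SvJae strain, by attaching biotin to the formyl group with an aldehyde-reactive probe, capturing the DNA and sequencing it. Wild-type cells (WT) grew on irradiated feeder fibroblasts, whereas the siRNA control (3 rounds of a non-targeting siRNA) and the TDG knockdown (TDG KD, 3 rounds of a pool of siRNAs against Tdg) grew without feeders. Each condition had 2 libraries, and 1 genomic input library was the background for all 6 pulldowns. The study describes them as biological replicates, and the p-values measure the spread between them. The 6 libraries are called WT 1, WT 2, control 1, control 2, KD 1 and KD 2, of which control 2 and KD 2 carry the name prefix EAR and the other four the prefix BHAM. No expression is held in the domain files, so neither the cell type nor the loss of TDG was checked here.

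Semaphorins, ephrins, Slits and netrins are the classical guidance cues that steer growing axons. Class 3 semaphorins act through neuropilins and plexins, transmembrane semaphorins through plexins, ephrins through Eph receptor kinases on neighbouring cells, Slits through Robo receptors, and netrin-1 through DCC and the UNC5 receptors. 5fC arises when TET enzymes oxidize 5-methylcytosine and 5-hydroxymethylcytosine, and TDG excises it. Promoters of developmental genes often lie in CpG islands (CGI), stretches rich in unmethylated CpGs.

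Most guidance genes have CpG-rich starts, but they differ widely in size and base composition. A CGI overlapped the transcription start site (TSS) window, 1 kb on either side, of 60 of the 70 records. The TSS window held a median of 51.2 CpGs per kb, against 31.0 over all autosomal genes, and was lowest at Ntng1 and highest, at 110, at Plxnc1. The genes measured 0.327 to 1092 kb, with a median of 57.4 kb against 15.2 kb over all genes. The G+C content of the whole gene ran from 35.3% (Epha5) to 58.1% (the short Ntng1 record), with a median of 49.2%.

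The bases just upstream of the TSS of 6 members show this range. They are the members with the highest and the lowest 5fC level at the TSS, the highest without a CGI, the lowest with one, and those with the highest CpG density and the highest ratio of observed to expected CpG in the window, chosen after the values were seen. Each line gives the 150 bases before the TSS on the coding strand of mm9, with every CpG in capitals.
Plxnd1: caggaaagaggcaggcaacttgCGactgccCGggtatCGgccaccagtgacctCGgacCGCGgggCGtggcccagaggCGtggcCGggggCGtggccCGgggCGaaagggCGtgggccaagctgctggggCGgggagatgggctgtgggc
Sema3a: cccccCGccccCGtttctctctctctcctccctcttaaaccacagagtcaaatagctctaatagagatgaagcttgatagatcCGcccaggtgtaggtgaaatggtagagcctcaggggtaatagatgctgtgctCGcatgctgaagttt
Sema3b: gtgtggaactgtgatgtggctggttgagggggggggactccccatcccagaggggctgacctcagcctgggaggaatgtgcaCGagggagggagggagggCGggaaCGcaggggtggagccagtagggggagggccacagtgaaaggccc
Sema3d: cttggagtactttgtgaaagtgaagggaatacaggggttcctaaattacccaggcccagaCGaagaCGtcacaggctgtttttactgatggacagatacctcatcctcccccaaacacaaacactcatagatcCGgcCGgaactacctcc
Plxnc1: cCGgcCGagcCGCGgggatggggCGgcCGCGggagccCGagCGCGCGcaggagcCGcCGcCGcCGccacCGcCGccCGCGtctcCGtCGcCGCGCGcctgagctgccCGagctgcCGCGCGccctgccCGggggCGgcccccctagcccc
Epha7: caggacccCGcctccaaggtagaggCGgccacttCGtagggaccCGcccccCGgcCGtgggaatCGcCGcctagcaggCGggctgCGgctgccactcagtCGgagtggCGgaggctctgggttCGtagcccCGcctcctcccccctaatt
They lie at chr6:115945024-115945173 (minus strand), chr5:13125443-13125592 (plus), chr9:107511561-107511710 (minus), chr5:12383016-12383165 (plus), chr10:94407213-94407362 (minus) and chr4:28740131-28740280 (plus). Plxnc1 had 30 CpGs in this stretch, Plxnd1 and Epha7 14 each, Sema3a and Sema3d 4 each and Sema3b 3. Among these 6 the 5fC level did not follow this order, since Sema3b stood among the highest members and Epha7 among the low ones, as the values below show. Sema3b and Sema3d were picked for their level with or without a CGI, so this mismatch says nothing about CpGs and 5fC in general. Over the 70 records the TSS level and the CpG density of the window had a Spearman rho of 0.40.

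The authors called domains separately in each library with rseg in 100 bp bins, and every stretch of the genome has a state (enriched, background or unconfident) and a score, the mean pulldown minus input reads per bin. The level used here is the score averaged over a window, minus the mean of the library, per 1000 M reads, so that 0 is the genome average of that library. The input enters the score unscaled, so it weighs more in the level of a shallow pulldown than of a deep one. The part of this in differences between libraries was not tested. A window was called enriched where enriched domains took up 50% of it or more. The gene body runs from 1 kb downstream of the TSS to the end of the gene. The libraries had 20.4 to 45.9 M reads. In WT 1 enriched domains had a median width of 700 bp, against 5900 to 24550 bp in the others. KD 1 was the shallowest, had 20.6% of the autosomes in the unconfident state against at most 0.259% elsewhere, and had 161.1 Mb enriched against 475.3 to 566.2 Mb.

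Enriched domains covered the TSS of guidance genes more often than that of all genes in every library. In WT 1 53 of 70 TSS windows were enriched against 53.2% of all genes, in WT 2 44 against 48.9%, in control 1 46 against 45.3%, in control 2 42 against 41.6%, in KD 1 19 against 16% and in KD 2 53 against 55.8%. As shares of the 70 these were 75.7%, 62.9%, 65.7%, 60%, 27.1% and 75.7%. Genes with a CGI at the TSS are the closer background, and of them 67.1%, 57.1%, 50.7%, 45.5%, 19.4% and 68.0% were enriched, in the same order, against 80.0%, 65.0%, 70.0%, 61.7%, 26.7% and 80.0% of the 60 members with a CGI. Both libraries of a condition called 41 members in WT (background 39.2%), 37 in the siRNA control (34.7%) and 19 in TDG KD (15.1%). No test of these shares was made, because neighbouring genes share domains and the genes were chosen with earlier results known.

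Gene bodies were enriched in 41 of 69 members in WT 1 (39.7% of all genes), 41 in WT 2 (49.2%), 44 in control 1 (47.7%), 42 in control 2 (46.5%), 18 in KD 1 (16.2%) and 43 in KD 2 (49.2%). The short Ntng1 record has no body. Both libraries of a condition called 40 bodies in WT (37.9%), 40 in the control (40.9%) and 18 in TDG KD (15.6%). Members were thus above the background in bodies as well as at the TSS. The median level at the TSS was 37.0 in WT 1, 20.6 in WT 2, 15.8 in control 1, 8.17 in control 2, 8.52 in KD 1 and 24.3 in KD 2, against 23.2, 5.96, 1.69, 0.213, 1.16 and 15.4 over all genes. For bodies the medians were 25.9, 16.6, 11.9, 6.94, 8.21 and 19.1, against 12.4, 7.36, 4.87, 2.09, 2.18 and 7.87.

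**Figure D1:**
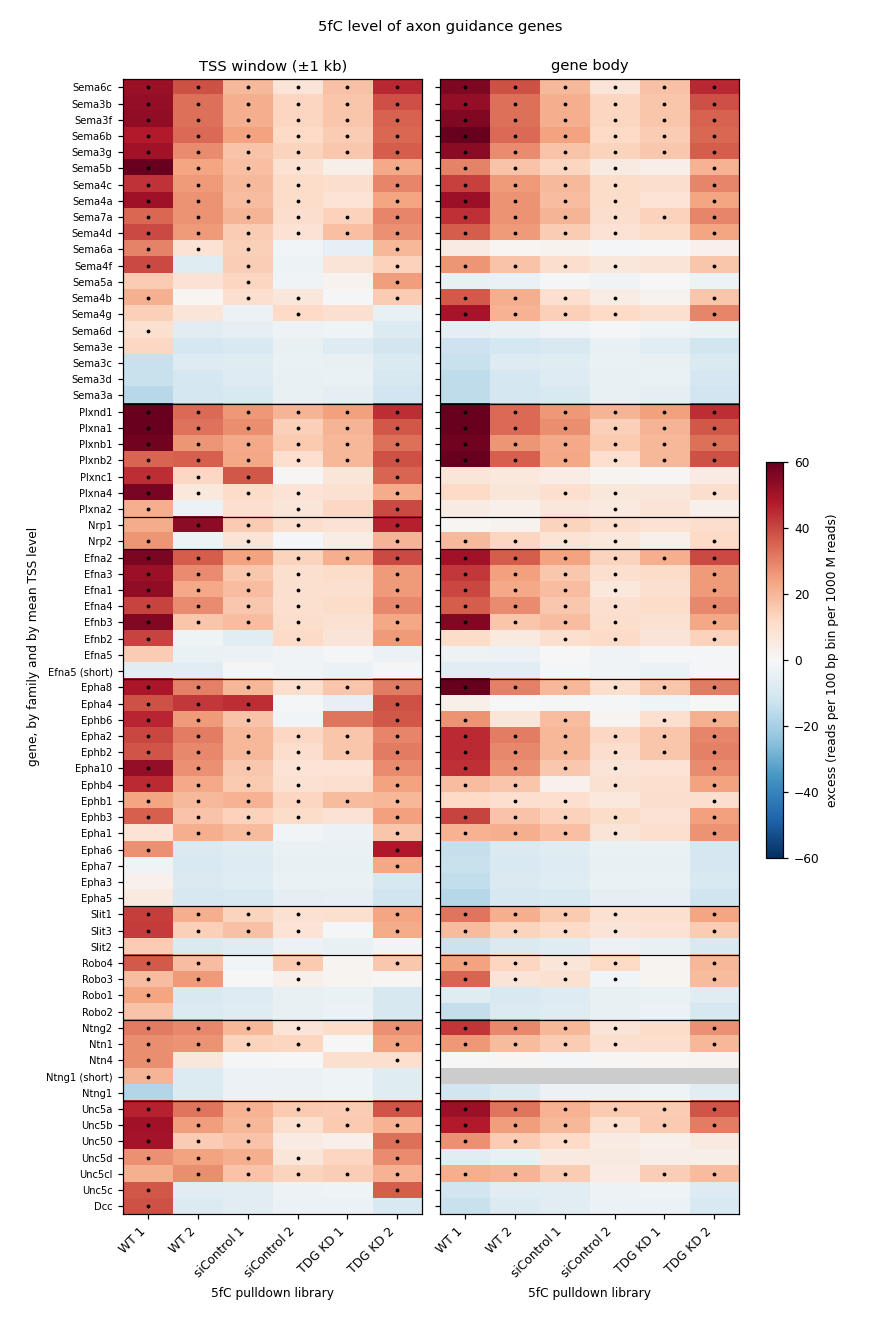
Level of 5fC in the TSS window (left) and the gene body (right) of each guidance gene record in the 6 libraries, by family and by mean TSS level, with colour in reads per 100 bp bin per 1000 M reads above (red) or below (blue) the library mean. Dots mark enriched windows and grey marks the record with no body. 18 members have a dot at the TSS in all 6 libraries and 11 in none.

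The TSS was enriched in all 6 libraries for 18 members, 25.7% of the 70 against 11% of all genes. They were the semaphorins Sema3b, Sema3f, Sema3g, Sema4d, Sema6b, Sema6c and Sema7a, the plexins Plxna1, Plxnb1, Plxnb2 and Plxnd1, the ephrin Efna2, the receptors Epha2, Epha8, Ephb1 and Ephb2, and the netrin receptors Unc5a and Unc5b. The body was enriched in all 6 libraries for 16 of 69 members, against 13.4% of all genes with a body, and these were the same 18 without Ephb1 and Sema4d. Over all genes, 1929 were enriched in all 6 libraries at both the TSS and the body and 244 at the TSS only, so the TSS-enriched members did not stand out by their bodies. Their lengths ran from 10.5 to 433 kb with a median of 27.8 kb, and their G+C content from 46.0% to 56.4%. Among members with a CGI, 26.7% were enriched at the TSS in all 6 libraries, against 13.4% of all CGI genes. Above 48% G+C it was 44.7% of members, against 26.2% of all such genes.

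At the other end, 11 members were enriched at the TSS in none of the 6 libraries, 15.7% against 28.7% of all genes. They were Sema3a, Sema3c, Sema3d and Sema3e, Epha3 and Epha5, Robo2, Slit2, Ntng1 and both records of Efna5. Their median length was 321 kb and their G+C content 35.3% to 41.7%, a range that does not meet that of the first group. 7 of the 11 had a CGI at the TSS. They were 11.7% of the 60 members with a CGI, against 15.5% of all CGI genes, so the gap to this closer background was small. The body was enriched in no library for 23 members, 33.3% against 41.1% of all genes.

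The class 3 semaphorins, secreted cues that repel many axons, held the lowest member, Sema3a, and the highest without a CGI at the TSS, Sema3b. Sema3b (chr9:107500548-107511560) had TSS levels of 52.7 and 33.3 in WT, 21.6 and 13.1 in the control and 16.6 and 38.5 in TDG KD. Sema3f, its neighbour on chromosome 9, had 53.2, 33.3, 21.6, 13.1, 16.6 and 35.3. The values of the pair are the same in 4 libraries because 1 domain held both genes there, so they are not separate measurements. Sema3a, the best studied repellent of the class, had -16.7 and -10.5 in WT, -9.12 and -4.39 in the control and -5.86 and -11.5 in TDG KD. All its libraries were below the library mean, and all those of Sema3b above it. Sema3a, Sema3d and Sema3e lay together in 1 background domain of 1902.2 kb in WT 2. Sema3c had -13.2, -7.57, -7.21, -4.13, -4.60 and -8.85. Sema3b has no CGI at its TSS, whereas the window of Sema3c has one and 43.5 CpGs per kb.

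Among the other semaphorins, which are membrane-bound, Sema6c had the highest mean over the 6 libraries in the family, 30.0 ± 17.6 (SD, n = 6), with 51.6, 38.3, 19.4, 7.78, 17.4 and 45.5. Sema3a had the lowest, -9.68 ± 4.38. In bodies the level was 30.7 ± 18.6 for Sema6c and -9.44 ± 3.94 for Sema3a. The SDs over 6 libraries include the different contrast of the libraries, which was widest in WT 1 and narrowest in control 2. Of 20 semaphorins 11 were enriched at the TSS in both WT libraries and 13 in the body.

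The plexins, which are the receptors of semaphorins, had the highest share of enriched starts, 6 of 7 in both WT libraries. Plxnd1, a receptor known from vessels as well as axons, had the highest mean of all members, 36.1 ± 17.4, with 67.2, 33.8, 26.1, 20.2, 24.8 and 44.3. Plxna2 had the lowest mean of the plexins, 14.6 ± 14.8, with 21.7 and -3.65 in WT, 10.2 and 7.45 in the control and 12.3 and 39.8 in TDG KD. Plxnc1, with the densest CpGs of all members, was at 44.3, 12.6, 37.1, 0.893, 7.26 and 34.9 at the TSS but at 7.28 or less in the body in every library. Plxna1, Plxnb1, Plxnb2 and Plxnd1 were enriched over at least 99.4% of the body on average over the 6 libraries.

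The neuropilins, the co-receptors of class 3 semaphorins, were less even. Nrp1 had 22.2 and 53.8 in WT, 15.8 and 10.6 in the control and 8.89 and 46.6 in TDG KD, and Nrp2 had 26.4, -2.97, 8.16, -1.36, 4.54 and 20.4. Neither TSS was enriched in both WT libraries. In WT 2 the Nrp1 signal came from an enriched domain of 3.7 kb at the TSS, and in control 2 from one of 369.3 kb that held the whole gene.

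The ephrins ranged from enriched to below the library mean. Efna2, a membrane-anchored ligand encoded in 10.5 kb, had the highest TSS level of the family, with 56.3, 36.5, 24.2, 13.3, 21.9 and 39.8. The long Efna5 record had 15.1, -3.94, -3.61, -2.17, -0.988 and -3.51, although its TSS window carries 93.5 CpGs per kb. The short record inside Efna5 had the lowest mean of the family, -3.30 ± 2.68. Efna3 and Efna4 lay in 1 domain in 4 libraries, and Efna1 with Efna3 in 2. Of 8 ephrin records 5 were enriched at the TSS in both WT libraries and 5 in the body.

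The 14 Eph receptors, kinases that bind ephrins, ranged as widely. Epha8 had the highest TSS mean, with 49.2, 30.3, 19.8, 10.7, 16.6 and 31.4, and shared its domain with Ephb2 in 3 libraries. Epha5 had the lowest, with 5.83, -9.65, -8.96, -5.20, -5.02 and -12.0. Epha4 was high in 4 libraries, at 38.4, 42.3, 44.3 and 38.2, and low in control 2 and KD 1, at -0.984 and -5.15. Where it was high, it lay in enriched domains of 2.0 to 6.3 kb around the start, and its body, at -2.53 to 2.83, was near the library mean throughout.

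Slits and Robos again differed by gene. Slit1 had 41.4, 21.7, 13.4, 9.08, 9.51 and 23.5 at the TSS and Slit2 15.2, -8.66, -7.48, -3.33, -4.55 and -1.79. Of their receptors, Robo4, which is best known from endothelium, had the highest TSS mean, 14.5 ± 13.8, with 36.8, 18.3, -1.81, 15.9, 1.75 and 16.2. Robo2 had the lowest, with 17.1, -8.31, -7.31, -4.35, -3.32 and -9.76. No Robo was enriched at the TSS in both control libraries or in both TDG KD libraries.

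Among netrins, the GPI-anchored Ntng2 was highest, with 31.0, 28.8, 20.0, 7.82, 10.9 and 27.6, and its close relative Ntng1 lowest, with -17.7, -8.26, -3.52, -3.73, -2.75 and -7.40. Ntn1, the founding netrin, had 28.1, 27.2, 13.3, 12.8, -0.437 and 24.3. Of the receptors Unc5a was highest, with 46.0, 32.1, 20.9, 15.8, 15.2 and 37.6. Dcc, which mediates attraction to netrin-1, was lowest and had 38.1 in WT 1 alone, with -8.08, -6.60, -3.46, -3.31 and -9.11 in the other five. In WT 1 its start lay in an enriched domain of 2.0 kb, and in the others in background domains of 2263 to 2658.7 kb that held the whole gene of 1092 kb.

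The level of a member followed the base composition of the whole gene. Across the 69 members with a body, the mean body level and the G+C content of the gene had a Spearman rho of 0.96, with 0.86 to 0.96 in the single libraries, and the level and gene length had one of -0.66. Over all 18067 genes these were 0.92 and -0.29. At the TSS the rho with the G+C content of the gene was 0.76 over the 70 records and 0.69 over all genes, and that with CpG density of the window 0.40 and 0.40. These correlations are across genes, which share domains, libraries, the input and base composition, and are given as descriptions.

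**Figure D2:**
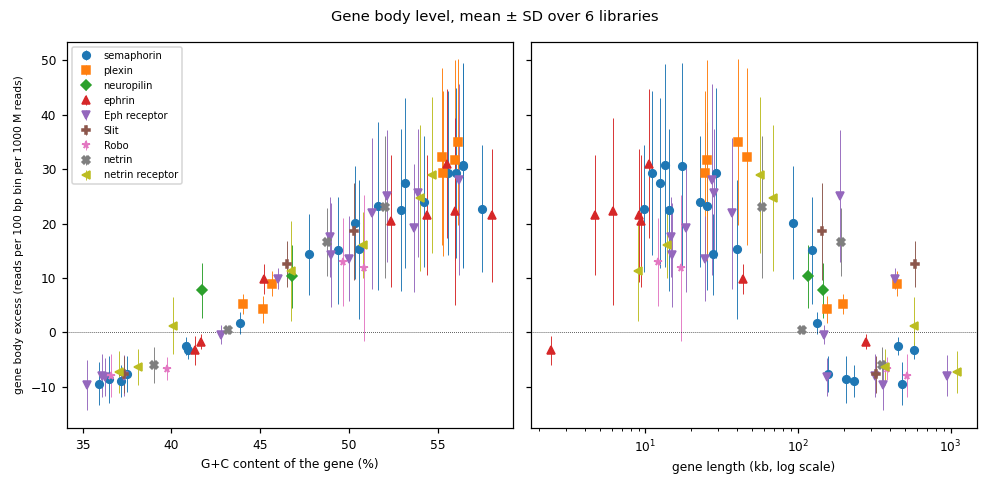
Mean gene body level of the 69 guidance genes with a body, with SD over 6 libraries as bars, against the G+C content of the gene (left) and its length on a log scale (right), with symbols by family. Levels are higher in genes of higher G+C content, from -9.70 at Epha5 to the highest value at Plxnd1.

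Members were also set against other genes in 3 classes of G+C content, with limits set after the values were seen. Of the 20 members at or below 42% none had an enriched body in both WT libraries, against 0.171% of all such genes, and 1 had an enriched TSS, against 5.41%. Between 42% and 48% 4 of 12 bodies were enriched, against 15.3%, and 7 of 12 starts, against 28.6%. Above 48% 36 of 37 bodies were enriched, against 88.3%, and 33 of 38 starts, against 71.7%. Length sorted them too, as 34 of 37 bodies of members up to 100 kb were enriched in both WT libraries, against 41.0% of all such genes, and 6 of 32 over 100 kb, against 15.5%. Pulldown of GC-rich DNA, library amplification and 5fC itself cannot be told apart from these files, and the part of each was not tested.

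The signal at the start was set against that of the gene body within each library. In WT 1 the TSS was above the body in 45 of 69 members and below it in 20, with a median difference of 7.06, against 6.25 over all genes. Among the 32 members over 100 kb it was above in 29, with a median difference of 22.2. In the other 5 libraries both levels were equal, within 0.05, in 32 to 48 members, because 1 domain often held the start and the whole gene. Such a domain was found for 4 members in WT 1 and for 33 to 49 in the others. By limma over 18051 genes no member passed at an adjusted p of 0.05, with 0% of all genes called higher and 0% lower. At an unadjusted p of 0.05 6 members passed, and 11.0% of all genes. The result depended on both WT libraries, for members as for all genes. The median estimate of the members was 1.07 with all libraries, 2.75 without WT 2 and under 0.05 without WT 1. Over all genes it was 0.987, 2.13 and under 0.05.

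Ephb1 and Unc5d were the only members of 69 with the TSS above the body in all 6 libraries, and both are named here for that value. No share over all genes is given beside this count, so it is not read as a trait of the members. Ephb1, a gene of 433 kb, had 23.6, 19.6, 20.8, 13.0, 19.1 and 19.9 at the TSS and 11.8, 9.87, 10.3, 6.36, 10.6 and 10.4 in the body. The ranges do not overlap, but the gene was picked for this same difference, so that adds no support. Averaged over conditions, the difference was 9.41 ± 1.11 (SE), adjusted p = 0.283 by limma. Unc5d, a repulsive netrin receptor of 573 kb, had 27.2, 24.3, 22.0, 7.40, 12.7 and 28.2 at the TSS and -6.62, -4.22, 5.62, 5.41, 3.86 and 3.49 in the body, with a difference of 19.0 ± 3.77 and adjusted p = 0.335. Epha4 had the largest difference, 26.6 ± 9.41, adjusted p = 0.461.

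The 5 lowest differences belonged to Sema4g, Epha1, Sema4b, Plxnb2 and Robo3, from -16.7 to -3.64. For Sema4g, a membrane-bound semaphorin, the TSS had 14.4, 7.27, -3.74, 12.0, 9.75 and -4.30 and the body 49.3, 20.7, 14.4, 12.0, 9.75 and 29.2. The TSS was thus lower in 4 libraries and equal in 2, and the limma estimate was -16.7 ± 12.6, adjusted p = 0.528.

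**Figure D3:**
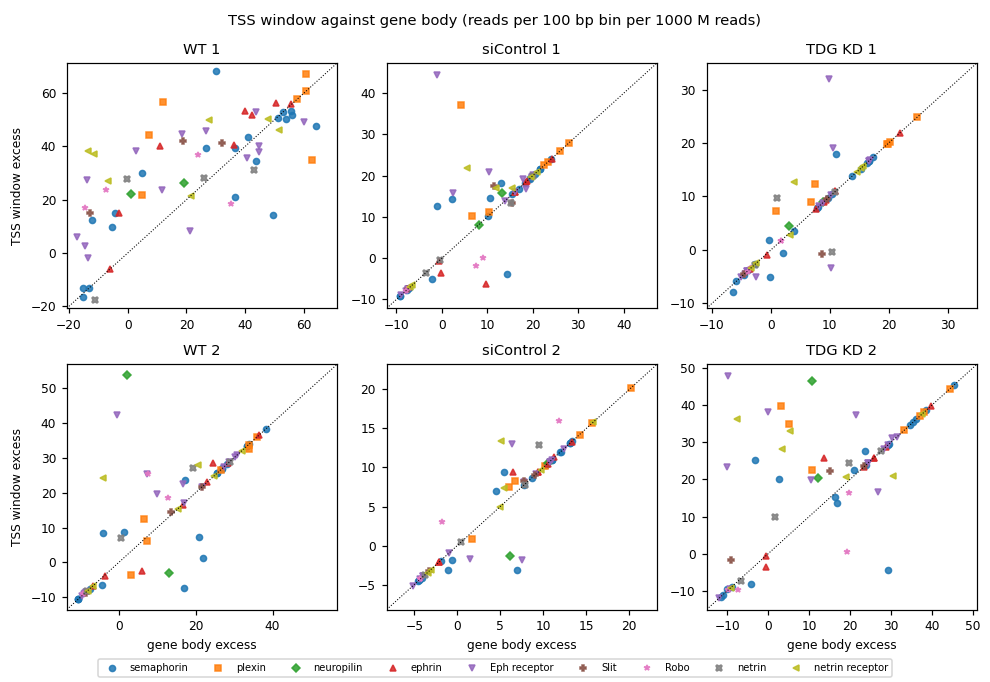
TSS window level against gene body level of each guidance gene in the 6 libraries, in reads per 100 bp bin per 1000 M reads above the library mean, with the dotted line marking equality and symbols by family. In WT 1, whose domains are narrow, most points lie above the line, and in the other libraries 32 to 48 of 69 lie on it.

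Around the TSS, the share of guidance genes in an enriched domain rose from 40% at 5 kb upstream to 81.4% at the start in WT 1 and fell to 53.7% at 5 kb and 44.7% at 25 kb downstream. All genes with a CGI went from 35.2% to 82.4%, 38.6% and 34.0%. In WT 1 the members, of which 10 of 70 have no CGI, were thus close to CGI genes at the start itself and above them downstream. Among the 60 members with a CGI, 80.0% of TSS windows were enriched in WT 1, against 67.1% of CGI genes. In control 1, control 2 and KD 1 all members together were above the CGI genes at the start too. The shares were 65.7% against 50.9%, 60% against 45.6% and 28.6% against 19.4%. In WT 2 the members were at 44.3%, 62.9%, 62.7% and 46.8% and the CGI genes at 45.6%, 57.4%, 47.0% and 38.7%. In KD 2 they were at 47.1%, 75.7%, 62.7% and 53.2% and the CGI genes at 44.0%, 69.4%, 46.7% and 38.6%.

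**Figure D4:**
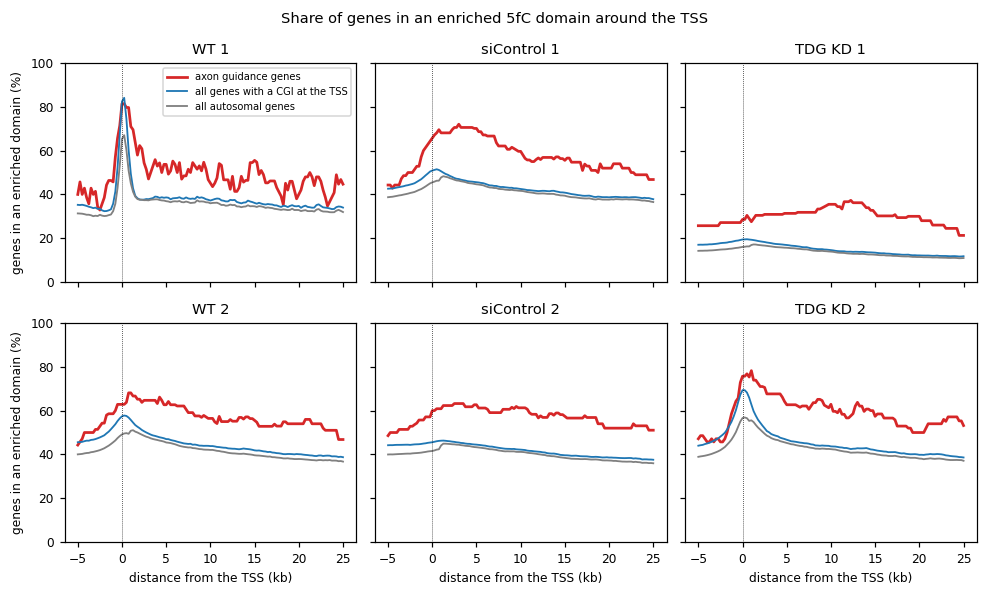
Share of genes whose position at a given distance (kb) from the TSS lies in an enriched domain, per library. Lines are guidance genes with or without a CGI (red), all genes with a CGI at the TSS (blue) and all autosomal genes (grey). Downstream positions are counted only inside genes. In WT 1 the red and blue lines meet at the start at 81.4% and 82.4% and separate downstream.

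By level relative to the library mean, TDG KD could not be told from the siRNA control at the guidance genes at this replication. A rise shared by the whole genome cannot be read from this level, because the mean of each library is taken off. The paper reports, by mass spectrometry, that the overall amount of formylcytosine rose in TDG KD. Whether the absolute amount rose at the guidance genes was not tested. By limma no member passed at the TSS or in the body, with 0% of all genes called in either direction at the TSS and 0% higher and 0.00553% lower in the body, and no member had an unadjusted p under 0.05. Within the EAR libraries the TSS level was higher in TDG KD for 55 of 70 members (63.1% of all genes), with a median difference of 16.6 against 9.98. Within the BHAM libraries it was higher for 25 (36.6%), with a median of -3.18 against -2.28. The sign of the difference therefore turned with the prefix. KD 1, in the BHAM pair, is the library with the large unconfident share, and control 2, in the EAR pair, has the narrowest contrast. As percentiles within a library, the member median at the TSS was 72.8 in control 1, 68.3 in KD 1, 72.0 in control 2 and 69.7 in KD 2. The median limma estimate on these percentiles was 1.10 over members, against -0.843 over all genes.

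Both TDG KD libraries were above both control libraries at the TSS of 5 members, 7.14% of 70 against 11% of all genes, and below them at none, against 12.6%. In bodies 3 of 69 were above, against 8.53%, and 2, Sema6d and Unc5d, were below, against 13.9%. The 5 highest differences at the TSS were those of Epha6, Ephb6, Unc5c, Sema6c and Plxna2. Epha6, the longest Eph receptor gene at 952 kb, had -7.37 and -3.94 in the control and -4.01 and 47.9 in TDG KD. Its value in KD 2 came from an enriched domain of 2.0 kb at the start, and WT 1 had one of 1.5 kb there. The limma estimate was 27.6 ± 15.6 (SE), adjusted p = 1.00. Ephb6 had 16.9 and -1.74 in the control and 32.0 and 37.2 in TDG KD, with 27.0 ± 14.6, adjusted p = 1.00. Unc5c had -6.97 and -3.08 against -2.48 and 36.2. Epha7, an Eph receptor of 154 kb, had -7.87 and -4.34 against -4.45 and 23.4, with an enriched domain of 3.1 kb at its start in KD 2. In WT 1 enriched domains took up 24.0% of its TSS window.

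The 5 lowest differences, those of Epha4, Sema3e, Slit3, Epha1 and Sema3a, were -5.12 to -1.94, each smaller than its SE. The Epha4 difference was -49.5 within the BHAM pair and 39.2 within the EAR pair, and the pairs disagreed in sign.

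**Figure D5:**
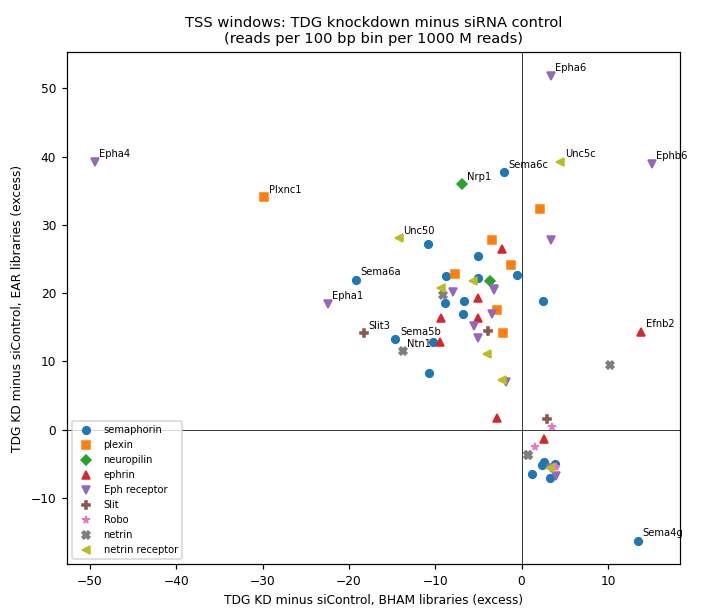
Difference between TDG KD and siRNA control in the TSS window of each guidance gene, within the BHAM libraries (horizontal) and within the EAR libraries (vertical), in reads per 100 bp bin per 1000 M reads, with symbols by family. 55 of 70 members lie above the horizontal axis and 25 to the right of the vertical one.

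The smaller number of enriched members in TDG KD rested on KD 1. Of the 34 members enriched at the TSS in the other 5 libraries, 18 were enriched in KD 1, 13 were unconfident and 3 were neither, and over all genes 41.1% were enriched and 54.9% unconfident. The unconfident members still had a median level of 9.39 there, against 16.7 for the enriched ones. KD 2 alone called 53 members, as many as WT 1.

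The siRNA control was compared with WT at the TSS. By limma no member passed, with 0% of all genes called in either direction, and 1 member, Robo3, had an unadjusted p under 0.05, with a difference of -20.2 ± 8.79 and adjusted p = 0.457. The median difference of the members was -17.7 with all libraries and -26.3 without WT 2, against -11.6 and -18.6 over all genes. Both control libraries were below both WT libraries at the TSS of 36 members, 51.4% against 44.3% of all genes, and above them at 5, 7.14% against 12.7%: the short Efna5 record, Ntng1, Sema3a, Sema3c and Sema3d. Feeders and siRNA treatment differ together between these conditions and cannot be told apart.

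Other genes of the pathway, 60 listed intracellular mediators, adhesion molecules and further cues and receptors, were found in 59 records with 58 symbols. Their TSS was enriched in both WT libraries for 31, 52.5% against 39.2% of all genes, and in all 6 for 9, 15.3% against 11%. The body was enriched in all 6 for 10, 16.9% against 13.4%. Most of these records have a CGI at the TSS. Over all CGI genes the shares, in the same order, were 47.4%, 13.4% and 15.0%, which is nearer to the listed genes. Among those enriched at the TSS in all 6 were Cdk5, Crmp1, Dpysl4, Vasp and both records of Mical3. Crmp1 and Dpysl4 are cytosolic mediators of semaphorin signals, and Vasp binds actin. By limma 0 of the 59 passed in any of the 4 comparisons, and 8 had an unadjusted p under 0.05 for TSS minus body, where 11.0% of all genes did.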

How the data were processed

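5fC pulldown libraries (2 WT, 2 siRNA control, 2 TDG KD) and 1 input library of J1 ES cells were analysed. As the study's methods give it, the authors mapped the reads to mm9 by BWA, for which the submitters' processing notes name version 0.6.1. Alignments with a mapping quality of 15 or more were kept, and rseg in mode 2 called domains per replicate on bins of 100 bp, with the input as control. The version of rseg is not given in the sources used here. The score deposited by the authors is, by what rseg writes, the mean pulldown minus input reads per bin, not scaled for depth. A second deposited score, which grows with domain width, was not used. Depth was 20.4 to 45.9 M reads per pulldown and 26.5 M for the input, as the read totals that the study lists for each library. Read counts per region were not used, so no counting interval is given and precision rests on 2 replicates.

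TSS, gene bodies (at least 1000 bp) and G+C content were taken from the GENCODE M1 annotation and the sequence of mm9. The TSS was the most 5′ start of protein-coding transcripts. Windows needed at least 50% of their length in domains. CGIs were stretches of at least 200 bp with G+C above 50% and CpG above 0.6 of expectation, repeats included (22596 on autosomes). Levels were compared with limma 3.58.1 (R 4.3.3), with an intensity trend, condition as the only term and Benjamini-Hochberg adjustment over all genes, on all 6 libraries, so that the conditions share 1 estimate of the spread. Other steps used Python 3.11.15, NumPy 2.4.6, pandas 2.3.3, SciPy 1.17.1 and Matplotlib 3.10.9. The window measure and the limma fits were tested on simulated data.

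The members and lists were chosen with earlier results of these data known. Named were, in each family, the members with the highest and lowest mean TSS level, the 10 largest TSS minus body differences past the threshold (there were none) and the 5 lowest, members enriched at the TSS in all 6 libraries and in none, the 5 highest and 5 lowest TDG KD differences, and the 5 largest and 5 smallest enriched shares of the body. The last were Sema6b, Sema3b, Plxnb1, Plxna1 and Plxnb2, and the short Efna5 record, Epha5, Robo2, Sema3c and Sema3a. Other members are named for their role or value. Alternatives are given at the end.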

Additional observations from a re-analysis of the deposited data

How the results depend on the processing

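Over 10 results, 79 of 85 alternatives left the count of members within 1.5 times the reported one. For the limma results the reported count was 0, and only a count of 0 was taken as unchanged. The reported fits called 0 or 1 of all genes, so agreement at 0 says little about the members. Members called for TSS minus body (0) came to 0 to 39 when 1 library was left out, with 3 without WT 1 and 39 without WT 2 (5015 genes higher and 3011 lower over all genes, against 0 and 0). Members called for siRNA control minus WT at the TSS (0) came to 0 to 14, with 14 without WT 2 (694 genes higher and 4771 lower). In these fits the lone WT library is assumed to vary like the other conditions. The count for TDG KD minus control stayed at 0 at the TSS and in the body under every alternative run, including leaving out each library (0 to 0) and the name prefix as a block (17 genes called over all genes at the TSS and 32 in the body, where 0 and 1 were called without it). The prefix is the only pairing in the labels, which give no shared replicate numbers. Members with an enriched TSS in both TDG KD libraries (19) were 19 without KD 2 and 53 without KD 1, and those with an enriched body (18) 18 and 43, or 29 if any overlap with an enriched domain counts. In WT and control the counts for 1 library alone were 44 to 53 and 42 to 46 at the TSS and 41 and 42 to 44 in the body. Leaving out Unc50, Unc5cl and the short records, an alternative chosen after seeing the data, gave 40, 36 and 18 at the TSS and 38, 40 and 17 in the body for WT, control and TDG KD. KD 1 had the fewest reads, 20.4 M, and the part of depth in its calls was not tested.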
